A study of Saccharomyces cerevisiae with 8 samples.

Results

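Heat shock proteins and molecular chaperones of Saccharomyces cerevisiae were followed across 3 strains. A list of 49 gene symbols was taken, covering small heat shock proteins (Hsps), the Hsp31, Hsp70, Hsp90, Hsp100 and Hsp110 families with their partners, J proteins, cyclophilins, the heat shock factor and the cytosolic chaperonin CCT, with the chaperones of mitochondrial import left out. A gene was included when the array annotation paired at least 1 probe set, a group of short probes that read 1 transcript, with its symbol. This gave 47 measured chaperone genes of 5449 genes tested. The symbols HSP32 and HSP33 were not matched.

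RNA of 3 strains was hybridised to 8 Affymetrix Yeast Genome 2.0 arrays. The wild type strain, of BY4741 descent, and the Δpde2 strain had 3 arrays each, and the Δpde2Δtpk3 strain had 2. All strains share the mating type of BY4741 (MATa) and its his3, leu2, met15 and ura3 alleles. All were cultured in YPD with 4 mM cAMP for 24 h, so that wild type cells received cAMP too. In Δpde2 cells the gene of the high affinity cAMP phosphodiesterase is replaced by KanMx. Δpde2Δtpk3 cells carry HIS3 in place of PDE2 and KanMx in place of TPK3, which encodes a catalytic subunit of protein kinase A (PKA). By these genotypes Δpde2Δtpk3 cells do not share the histidine auxotrophy of the other strains. The study's strain list gives both mutants different origins, so that marker, origin and loss of TPK3 cannot be told apart between them. Replicate cultures are described for the mutants, but nothing ties an array to a culture of its own, and the p-values below measure the spread between these arrays only. A level is the log2 signal of a gene's probe set after quantile normalization, and levels are compared between strains for the same gene. For pairs of genes the difference within an array is compared between strains, and its sign does not rank the genes.

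Chaperones bind unfolded or partly folded proteins and pass them towards their native state, to disaggregation or to degradation. Hsp70 is the centre of this network. J proteins stimulate its ATPase and deliver substrates, nucleotide exchange factors release them, and Hsp90 with its co-chaperones and CCT receive selected clients. In budding yeast many of these genes are transcribed under the heat shock factor Hsf1p, the stress factors Msn2p and Msn4p, or both, and high PKA activity is known to restrain Msn2p and Msn4p and the genes that are switched on as glucose runs out.

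The targeted genes matched the labels. PDE2 read 9.13, 10.73 and 9.66 in wild type arrays and between 4.89 and 5.18 in all arrays of both mutants, and TPK3 read 8.57 to 8.84 in wild type and Δpde2 arrays but 4.97 and 4.37 in Δpde2Δtpk3 arrays. HIS3 read 10.88 to 11.36 in wild type, 11.81 to 11.95 in Δpde2 and 11.11 and 11.53 in Δpde2Δtpk3 arrays. The Δpde2 arrays lay above all others (0.81 for Δpde2 with wild type, adjusted p = 0.00934, limma), and the Δpde2Δtpk3 arrays, whose strain carries it as a marker, overlapped with wild type. The array with the widest scatter was wild type replicate 1. The SD of its deviations from the strain mean over all genes was 0.604, against 0.0983 to 0.340 for the rest, and over the chaperones it was 0.351. For 12 of the 47 chaperones this array lay more than 0.5 from the mean of the other wild type arrays, and for LHS1, CAJ1 and MDJ2 the difference was -1.90, -1.41 and 1.24. Without this array none of the 28 chaperone calls moved by over 1.5 times, but values that did not pass moved by that much for 13 chaperones between Δpde2 and wild type and for 15 between Δpde2Δtpk3 and wild type cells, while the sign changed for 3 and for 2 chaperones. Calls gained without it are given below with their adjusted p. In the comparison of the mutants no log2 fold change moved when this array was left out. There, only the spread that all strains share in the fit changed, and the adjusted p through it.

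In Δpde2 cells 13 of 47 chaperone transcripts rose and 6 fell against wild type cells (limma, adjusted p under 0.05 over all genes), and 28 did not pass the test. Over all genes tested 19.5% were called higher and 21.9% lower in that comparison, and the chaperone counts, 27.7% and 12.8% of 47, lay near this background. The median log2 fold change of the chaperones was 0.21 against 0.03 for all genes. Only SSA2, XDJ1 and SSA4 rose by 2-fold or more, and only HSP12, SSA3 and HSP31 fell by as much. These 6 genes, which come from 4 families, carry the widest differences that passed the test. As all values come from whole cultures, fewer cells of a kind and less RNA per cell cannot be told apart.

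Between both mutants 0 chaperones were higher in Δpde2 cells and 4 were lower (HSP12, HSP31, SSA1 and SSA3), where 5.56% of all genes were called higher and 7.41% lower. Between Δpde2Δtpk3 and wild type cells 3 were higher (SSA2, SSA4 and KAR2) and 2 lower (HSP31 and SSA3), where 1.03% of all genes were called higher and 1.69% lower. Both comparisons rest on the 2 Δpde2Δtpk3 arrays, and the comparisons share arrays with each other. Without wild type replicate 1 the counts of chaperones rose to 16 higher and 8 lower between Δpde2 and wild type, to 7 and 11 between both mutants and to 13 and 3 between Δpde2Δtpk3 and wild type cells, while the background rose to 31.4% and 29.4%, to 23.8% and 20.8% and to 8.77% and 9.08%. Without either Δpde2Δtpk3 array no chaperone was called in the 2 comparisons that use them, and none of the 5 calls between Δpde2Δtpk3 and wild type cells was made with only these strains in the fit.

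**Figure D1:**
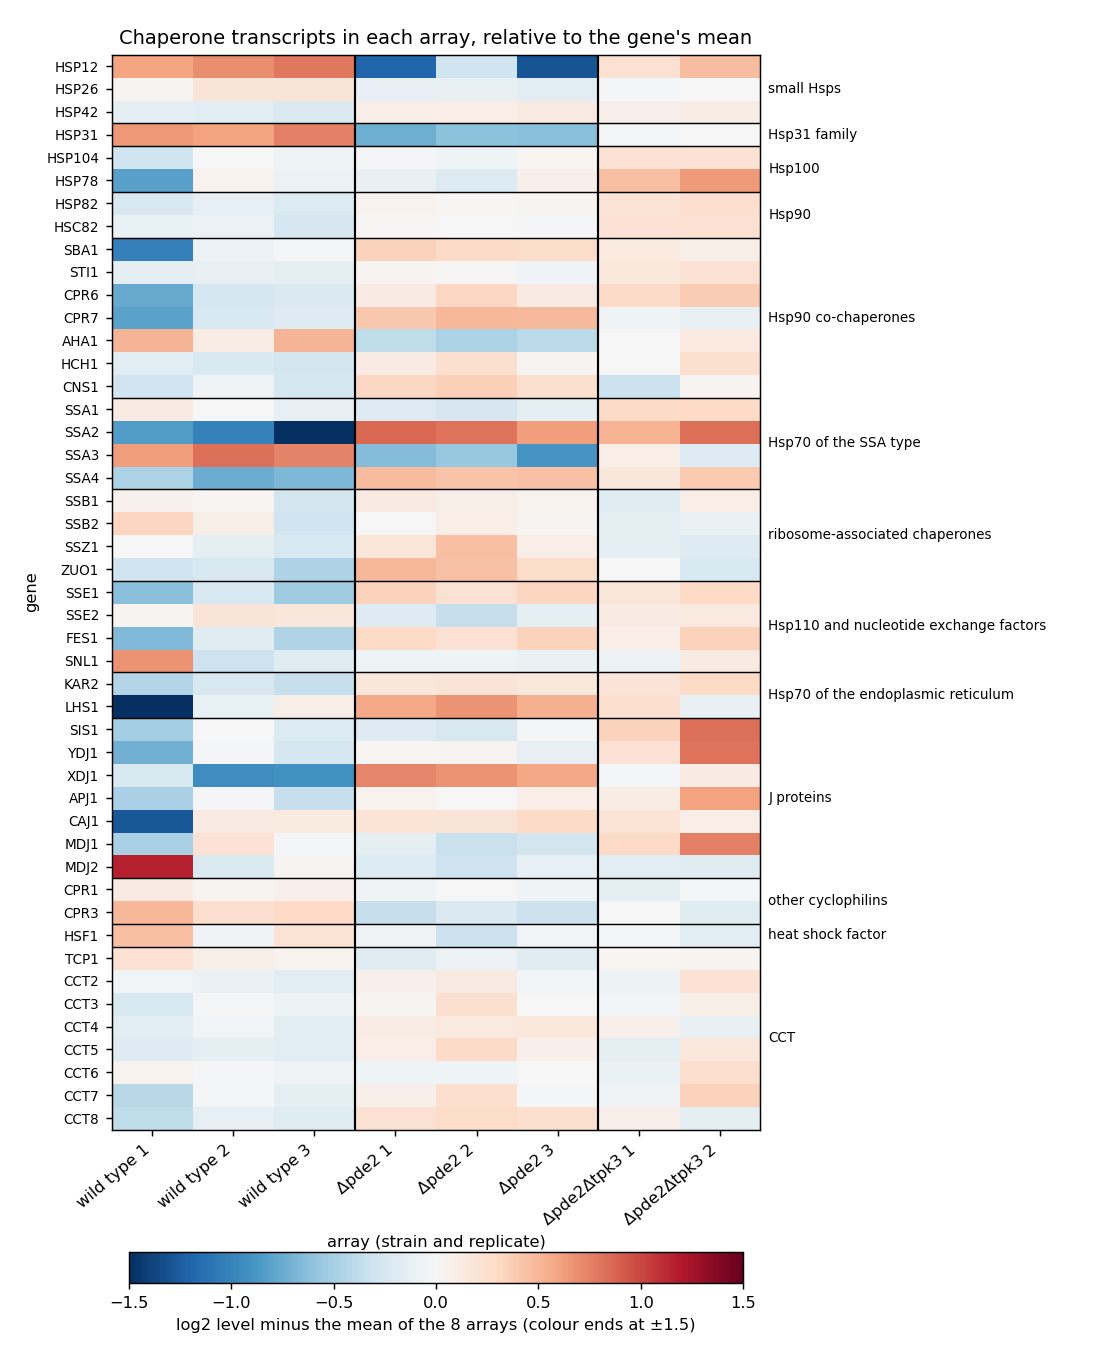
Level of each of the 47 chaperone transcripts in each of the 8 arrays (columns, by strain and replicate), as the log2 level minus the gene's mean over the arrays, with families separated by lines. SSA2, SSA4 and XDJ1 are low in the 3 wild type arrays and high in the Δpde2 arrays, HSP12, HSP31 and SSA3 run the other way, and wild type replicate 1 differs from its replicates for LHS1, CAJ1 and MDJ2.

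**Figure D2:**
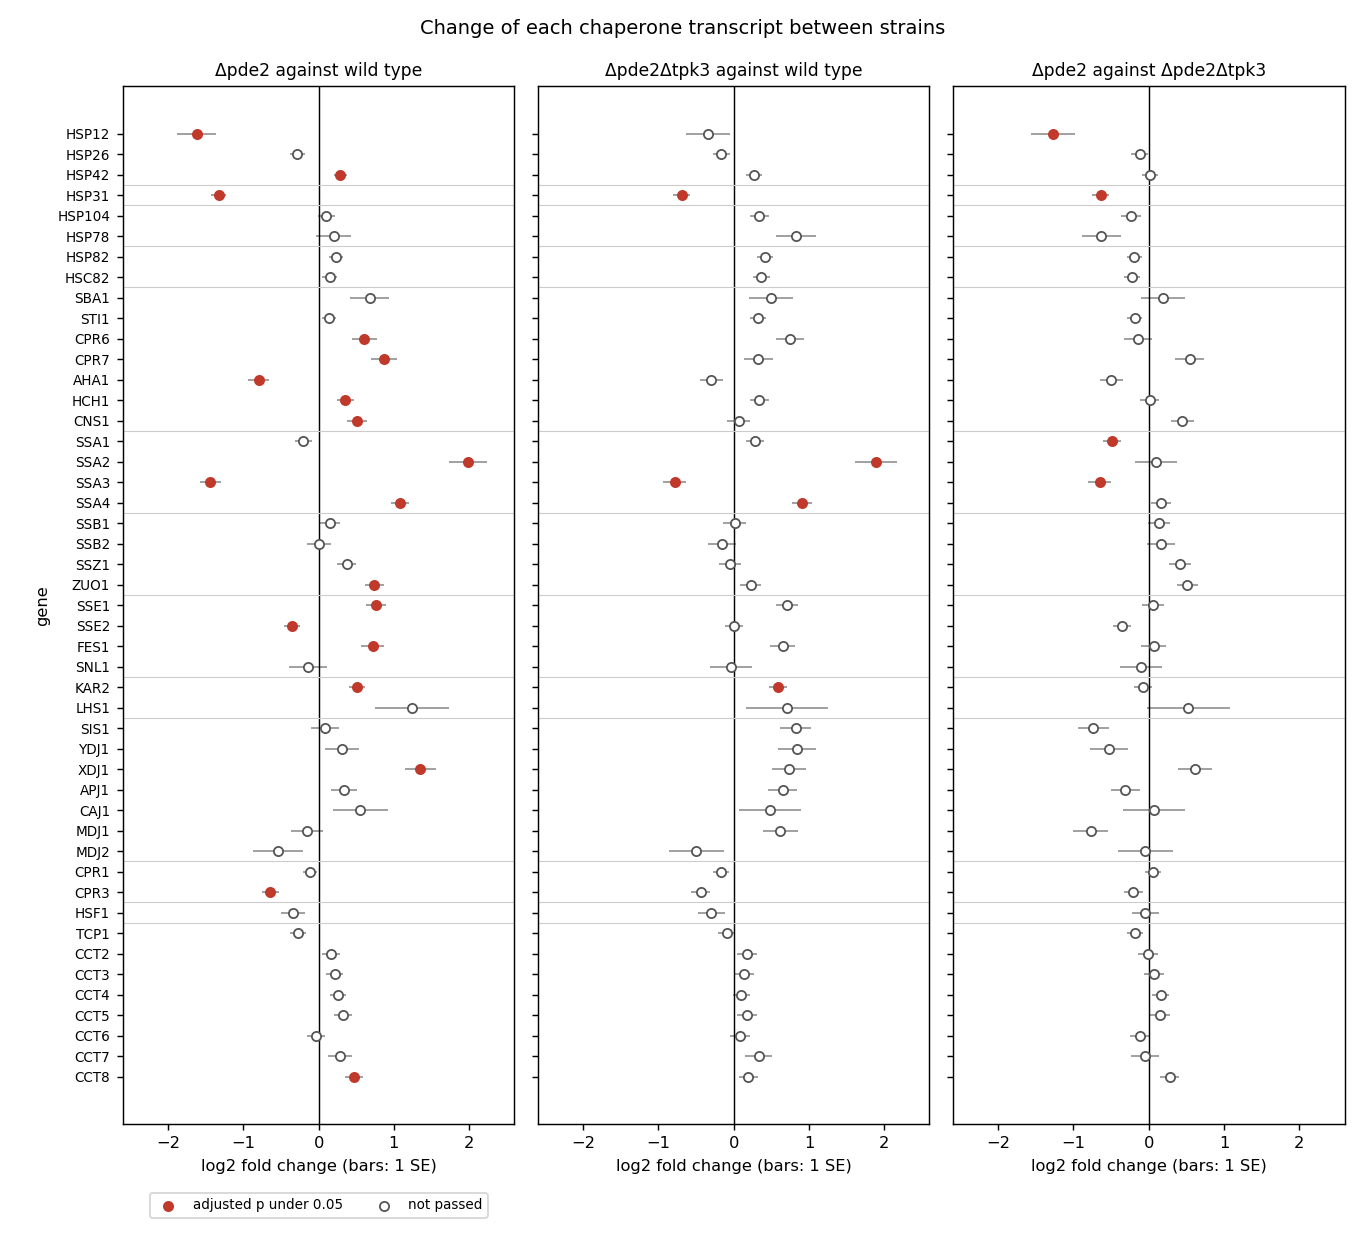
Log2 fold change of each chaperone transcript in the 3 comparisons (points, with bars of 1 SE), filled where the adjusted p was under 0.05. Filled points number 19 for Δpde2 against wild type, 5 for Δpde2Δtpk3 against wild type and 4 for Δpde2 against Δpde2Δtpk3.

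The 4 cytosolic Hsp70 genes of the SSA type, whose products share essential functions in folding and translocation, moved in different directions. SSA2, which is transcribed in unstressed cells, read 12.01, 11.83 and 11.07 in wild type, 13.71, 13.66 and 13.48 in Δpde2 and 13.38 and 13.68 in Δpde2Δtpk3 arrays. Every mutant array lay above every wild type array, and the mutants overlapped. SSA2 rose 3.94-fold in Δpde2 cells against wild type (1.98 on the log2 scale, SE 0.25, adjusted p = 0.00123, limma) and 3.70-fold in Δpde2Δtpk3 cells (1.89, SE 0.28, adjusted p = 0.023), with a difference of 0.09 between the mutants (SE 0.28, adjusted p = 0.87).

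SSA4, a stress-inducible member, read 12.93, 12.66 and 12.73 in wild type, 13.88, 13.84 and 13.84 in Δpde2 and 13.57 and 13.80 in Δpde2Δtpk3 arrays. Here too both mutants lay above wild type throughout. The rise was 2.11-fold in Δpde2 cells (1.08 on the log2 scale, SE 0.12, adjusted p = 0.000796, limma) and 1.88-fold in Δpde2Δtpk3 cells (0.91, SE 0.13, adjusted p = 0.0228). The difference between the mutants was 0.17 (SE 0.13, adjusted p = 0.46).

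SSA3, the other stress-inducible member, known for its expression as yeast cultures leave growth on glucose, moved the opposite way. Its levels were 13.36, 13.56 and 13.48 in wild type, 12.08, 12.17 and 11.85 in Δpde2 and 12.83 and 12.54 in Δpde2Δtpk3 arrays. The 3 strains did not overlap, with Δpde2 lowest and Δpde2Δtpk3 between. SSA3 fell by 1.44 on the log2 scale in Δpde2 against wild type cells (2.71-fold, SE 0.14, adjusted p = 0.00051, limma), by 0.65 against Δpde2Δtpk3 cells (SE 0.15, adjusted p = 0.0371) and, in Δpde2Δtpk3 against wild type cells, by 0.78 (SE 0.15, adjusted p = 0.0486).

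SSA1, the close relative of SSA2, read 13.89, 13.75 and 13.63 in wild type, 13.56, 13.50 and 13.61 in Δpde2 and 14.03 and 14.05 in Δpde2Δtpk3 arrays. Both Δpde2Δtpk3 arrays were the highest, and the Δpde2 arrays lay just below the lowest wild type array. Only the comparison of the mutants passed, with SSA1 lower by 1.40-fold in Δpde2 cells (-0.49 on the log2 scale, SE 0.12, adjusted p = 0.0421, limma), against -0.20 for Δpde2 with wild type (adjusted p = 0.17) and 0.28 for Δpde2Δtpk3 with wild type (adjusted p = 0.25).

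The 3 SSA calls between Δpde2 and wild type cells held with each of the 8 arrays left out (highest adjusted p 0.00861 for SSA2, 0.00475 for SSA3 and 0.00724 for SSA4). Those that use the Δpde2Δtpk3 arrays did not. A wild type array enters the comparison of the mutants only through the spread shared in the fit. Between the mutants, SSA1 and SSA3 passed only when the array left out was wild type replicate 1, with adjusted p up to 0.169 and 0.162 when another was. Against wild type, SSA2 passed without any 1 wild type array, SSA4 without wild type replicate 1 or 2 and SSA3 without wild type replicate 1 only, and leaving out Δpde2Δtpk3 replicate 2 gave 0.203, 0.195 and 0.283. SSA3 also lost this last call after median centring (adjusted p = 0.0502). SSA1 was called higher in Δpde2Δtpk3 than in wild type cells without wild type replicate 1 (0.35, adjusted p = 0.0429).

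**Figure D3:**
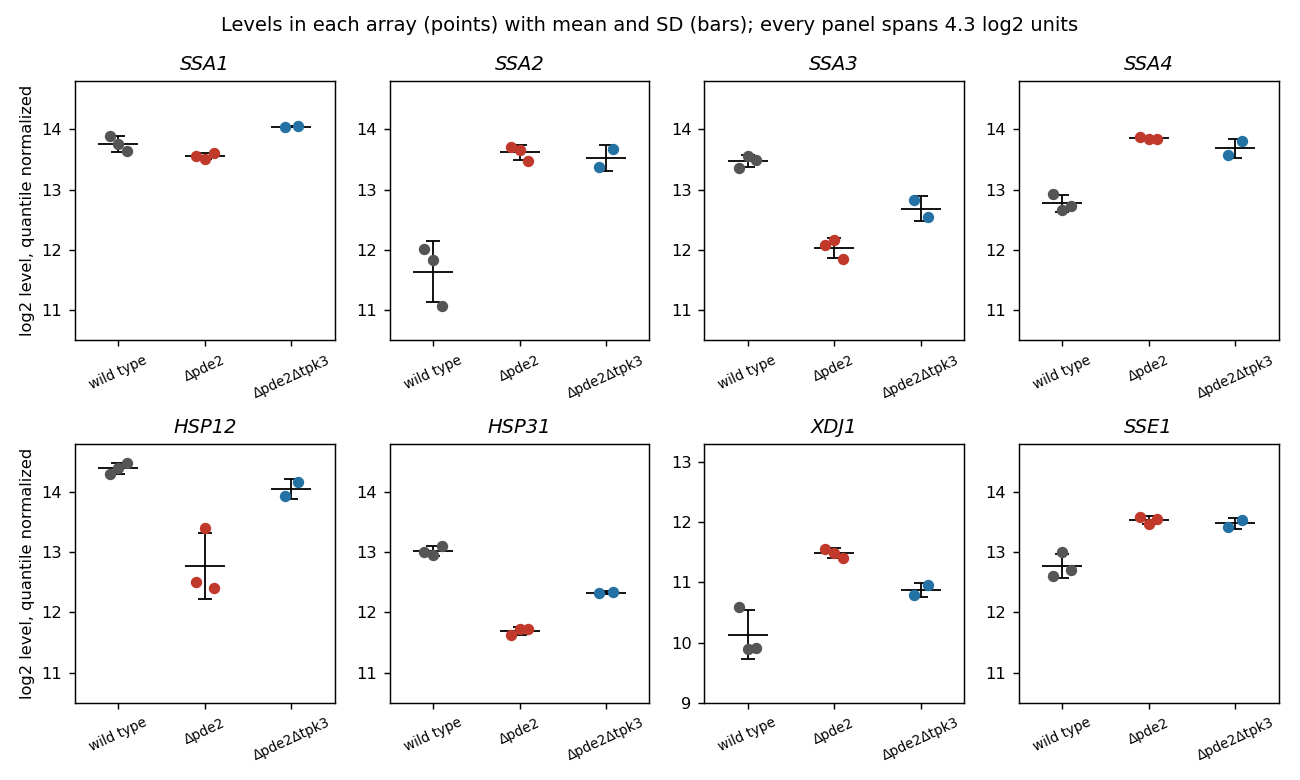
Log2 level in each array (points) with mean and SD (bars) for the 4 SSA genes, HSP12, HSP31, XDJ1 and SSE1, by strain. All panels span the same number of log2 units, but the scale of the XDJ1 panel starts lower than the others. SSA2, SSA4, XDJ1 and SSE1 are lowest in wild type arrays, while SSA3, HSP12 and HSP31 are lowest in Δpde2 arrays with Δpde2Δtpk3 arrays between.

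Of the small Hsps HSP12 fell, HSP42 rose and HSP26 passed no test. HSP12 encodes a small membrane-associated protein and is widely used as a reporter of Msn2p and Msn4p activity. HSP12 read 14.29, 14.40 and 14.48 in wild type, 12.51, 13.40 and 12.40 in Δpde2 and 13.93 and 14.16 in Δpde2Δtpk3 arrays. The 3 strains were separate, although Δpde2 replicate 2 lay between its replicates and the Δpde2Δtpk3 arrays. HSP12 was 3.07-fold lower in Δpde2 cells relative to wild type (-1.62 on the log2 scale, SE 0.26, adjusted p = 0.00306, limma) and 2.42-fold lower than in Δpde2Δtpk3 cells (-1.27, SE 0.29, adjusted p = 0.0339). Δpde2Δtpk3 and wild type cells differed by -0.35 (SE 0.29, adjusted p = 0.51).

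HSP26, whose oligomers hold unfolded proteins in a soluble state, read 14.40, 14.55 and 14.55 in wild type, 14.22, 14.24 and 14.18 in Δpde2 and 14.32 and 14.35 in Δpde2Δtpk3 arrays, close to the highest value on any array (14.70). The order of the strains was that of HSP12 over a much narrower range, and no comparison passed (-0.28, adjusted p = 0.053 for Δpde2 with wild type, limma). HSP42, which sequesters misfolded proteins into deposits, was 0.29 higher in Δpde2 relative to wild type cells (SE 0.09, adjusted p = 0.040), with levels of 13.72 to 13.79 in wild type, 14.03 to 14.07 in Δpde2 and 14.01 and 14.04 in Δpde2Δtpk3 arrays. Leaving out wild type replicate 1 brought HSP26 past the threshold (adjusted p = 0.0075), and leaving out any other array took HSP42 to adjusted p between 0.0524 and 0.135. HSP42 did not pass on the values as deposited (0.25, adjusted p = 0.0644) or after median centring (0.20, adjusted p = 0.152), so that no small Hsp rose under these scalings. How far the top of the scale narrows these differences was not tested.

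HSP31, a DJ-1 family protein that acts as a chaperone and detoxifies methylglyoxal, had graded levels. It read 13.00, 12.95 and 13.11 in wild type, 11.62, 11.73 and 11.73 in Δpde2 and 12.32 and 12.34 in Δpde2Δtpk3 arrays, so that the double mutant sat near the middle of the gap and no array overlapped with another strain. HSP31 was lower by 2.50-fold in Δpde2 relative to wild type cells (-1.32 on the log2 scale, SE 0.10, adjusted p = 0.000259, limma), by 1.55-fold relative to Δpde2Δtpk3 cells (-0.64, SE 0.11, adjusted p = 0.0175) and by 1.61-fold in Δpde2Δtpk3 relative to wild type cells (-0.69, SE 0.11, adjusted p = 0.0286).

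For HSP12 and HSP31 the fall in Δpde2 against wild type cells held with each array left out (adjusted p at most 0.0163 and 0.00328). The difference of HSP12 between the mutants passed without wild type replicate 1 or Δpde2 replicate 2 only, reaching an adjusted p of 0.175 without Δpde2Δtpk3 replicate 2. That of HSP31 passed without any 1 wild type array and reached 0.0966 without Δpde2Δtpk3 replicate 2. HSP31 passed between Δpde2Δtpk3 and wild type cells without wild type replicate 1 only and reached 0.197 without Δpde2Δtpk3 replicate 2.

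Some chaperones of the cytosol, mitochondria and endoplasmic reticulum had a different order, with the double mutant highest. Both Δpde2Δtpk3 arrays lay above all 6 other arrays for 11 of 47 chaperones (HSP104, HSP78, HSP82, HSC82, STI1, SSA1, KAR2, SIS1, YDJ1, APJ1 and MDJ1), as for 2.97% of all genes, and below them for 0 of 47, as for 4.09% of all genes. This ordering was noticed in the levels and is a description with no test. It gave 10 genes on the values as deposited, 12 after median centring and 11 without wild type replicate 1, where the share of all genes was 5.69%. With 1 double mutant array standing for the strain it gave 11 genes without replicate 2 and 15 without replicate 1, and 6.48% and 12.0% of all genes. The margin could be narrow. KAR2 read 13.54 in Δpde2 replicate 2 and 13.55 in Δpde2Δtpk3 replicate 1, and differed by -0.08 between the mutants (adjusted p = 0.72, limma). APJ1 was close too, as given below.

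HSP104, the disaggregase that pulls proteins out of aggregates, read 13.18 to 13.48 in wild type, 13.42 to 13.51 in Δpde2 and 13.70 in both Δpde2Δtpk3 arrays. Its mitochondrial relative HSP78 read 11.73, 12.61 and 12.47 in wild type, 12.34 to 12.62 in Δpde2 and 13.01 and 13.19 in Δpde2Δtpk3 arrays. Neither passed a test. Between Δpde2 and wild type cells HSP78 differed by 0.20 (adjusted p = 0.51, limma), or by -0.07 without wild type replicate 1. For HSP78 the log2 fold change was 0.83 for Δpde2Δtpk3 with wild type (SE 0.26, adjusted p = 0.14, limma) and -0.63 for Δpde2 with Δpde2Δtpk3 (SE 0.26, adjusted p = 0.16). Both passed without wild type replicate 1, at 0.56 (adjusted p = 0.0252) and -0.63 (adjusted p = 0.00482), and HSP104 passed between the mutants at 0.049.

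The Hsp90 genes, stress-inducible HSP82 and the more constant HSC82, whose products mature kinases, receptors and other clients, ran in parallel. HSP82 read 13.48, 13.59 and 13.51 in wild type, 13.77, 13.74 and 13.76 in Δpde2 and 13.92 and 13.97 in Δpde2Δtpk3 arrays. HSC82 read 13.29, 13.29 and 13.13, then 13.40, 13.38 and 13.37, then 13.60 and 13.61. Both genes rank the strains alike without overlap, wild type lowest and Δpde2Δtpk3 highest. Their differences were small, at 0.42 (SE 0.10, adjusted p = 0.086, limma) and 0.37 (SE 0.11, adjusted p = 0.13) for Δpde2Δtpk3 with wild type and 0.23 (adjusted p = 0.089) and 0.15 (adjusted p = 0.26) for Δpde2 with wild type. The former passed without wild type replicate 1 for HSP82 (0.39, adjusted p = 0.0245) and HSC82 (0.39, adjusted p = 0.0297).

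Among the 7 J proteins, which recruit and activate Hsp70, only XDJ1 passed a test with all arrays in the fit. XDJ1, a relative of Ydj1p, read 10.60, 9.89 and 9.91 in wild type, 11.56, 11.49 and 11.40 in Δpde2 and 10.79 and 10.95 in Δpde2Δtpk3 arrays. The strains did not overlap and Δpde2 was highest. The rise in Δpde2 against wild type cells was 2.55-fold (1.35 on the log2 scale, SE 0.20, adjusted p = 0.0023, limma) and held with each array left out (adjusted p at most 0.0138). Differences of 0.61 between the mutants (adjusted p = 0.12) and 0.74 between Δpde2Δtpk3 and wild type cells (adjusted p = 0.13) did not pass, but did without wild type replicate 1 (adjusted p = 0.00241 and 0.0017).

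The general cytosolic J proteins SIS1 and YDJ1, the related APJ1 and the mitochondrial matrix protein MDJ1 were highest in Δpde2Δtpk3 arrays. For APJ1 this order was narrow, with 12.21 in Δpde2 replicate 3 and 12.22 in Δpde2Δtpk3 replicate 1, and was lost on the values as deposited. SIS1, which is essential and helps Hsp104p, read 12.41 to 12.92 in wild type, 12.68 to 12.90 in Δpde2 and 13.27 and 13.75 in Δpde2Δtpk3 arrays. MDJ1, which works with the matrix Hsp70, read 11.57 to 12.27, 11.73 to 11.92 and 12.34 and 12.82. Here Δpde2Δtpk3 replicate 2 lay about 0.5 above replicate 1, as it did for YDJ1 (13.37 and 12.77) and APJ1 (12.71 and 12.22).

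None of these 4 passed a test. Between Δpde2 and Δpde2Δtpk3 cells SIS1 differed by -0.74 (SE 0.21, adjusted p = 0.058, limma), MDJ1 by -0.77 (SE 0.23, adjusted p = 0.077), YDJ1 by -0.53 (adjusted p = 0.21) and APJ1 by -0.31 (adjusted p = 0.34). This comparison passed without wild type replicate 1 for SIS1 (adjusted p = 0.00811), MDJ1 (0.00645) and YDJ1 (0.0437), and SIS1 passed for Δpde2Δtpk3 with wild type (0.0332). CAJ1, a nuclear J protein, and MDJ2, of the mitochondrial inner membrane, showed a wide spread in wild type arrays alone (10.82 to 12.24 and 7.09 to 8.45), the outlying value being that of replicate 1. Their differences of 0.55 and -0.54 between Δpde2 and wild type cells (adjusted p = 0.25 and 0.22) shrank to 0.08 and -0.13 without it.

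Of 7 Hsp90 co-chaperones 4 rose and 1 fell in Δpde2 against wild type cells, where 19.5% of all genes rose and 21.9% fell. On the values as deposited or after median centring 3 rose, since HCH1 no longer passed (adjusted p = 0.062 and 0.0789, limma). CPR7, a cyclophilin that binds Hsp90, rose by 0.87 (SE 0.17, adjusted p = 0.00721, limma), with levels of 8.65, 9.22 and 9.25 in wild type, 9.86, 9.95 and 9.93 in Δpde2 and 9.40 and 9.33 in Δpde2Δtpk3 arrays. Its relative CPR6 rose by 0.61 (SE 0.17, adjusted p = 0.0244), with 12.55 to 13.09, 13.43 to 13.63 and 13.59 and 13.69. The strains kept apart for CPR7, with Δpde2 highest, whereas for CPR6 the mutants overlapped above wild type.

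CNS1, an essential co-chaperone of both Hsp90 and Hsp70, rose by 0.51 (SE 0.14, adjusted p = 0.0217, limma), and HCH1, a regulator of the Hsp90 cycle, by 0.35 (SE 0.11, adjusted p = 0.043). AHA1, which stimulates the Hsp90 ATPase and resembles HCH1, fell by 0.79 (SE 0.14, adjusted p = 0.00418), from 12.75, 12.35 and 12.75 in wild type to 11.86, 11.77 and 11.84 in Δpde2 arrays, with 12.24 and 12.39 in Δpde2Δtpk3 arrays. AHA1 and HCH1 thus moved apart. SBA1, the p23 protein that slows the Hsp90 cycle, differed by 0.68 (adjusted p = 0.072) and STI1, which joins Hsp70 to Hsp90, by 0.13 (adjusted p = 0.27).

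AHA1 and CPR7 kept their calls with each array left out. CPR6 lost its own without any 1 Δpde2 array (adjusted p 0.0649 to 0.0903), CNS1 without a Δpde2 array or wild type replicate 3 (0.061 to 0.0801) and HCH1 without a Δpde2 array or wild type replicate 2 or 3 (0.0818 to 0.153). SBA1 passed without wild type replicate 1 (0.36 in place of 0.68, adjusted p = 0.00669), in which its level was 11.64 against 12.58 and 12.64. No co-chaperone passed in the other comparisons. Without wild type replicate 1, CPR7 (0.00229), AHA1 (0.0171) and CNS1 (0.0273) passed between the mutants, and CPR6 (0.0125) and STI1 (0.0492) between Δpde2Δtpk3 and wild type cells.

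The Hsp110 genes, whose products exchange nucleotides on Hsp70, moved in opposite directions. SSE1 rose by 0.77 in Δpde2 against wild type cells (1.70-fold, SE 0.13, adjusted p = 0.00392, limma), with levels of 12.61, 13.00 and 12.70 in wild type, 13.58, 13.46 and 13.56 in Δpde2 and 13.42 and 13.54 in Δpde2Δtpk3 arrays. Both mutants lay above wild type and overlapped each other. SSE2, its stress-induced copy, fell by 0.36 (SE 0.11, adjusted p = 0.0333), from 12.25, 12.40 and 12.37 in wild type to 12.01, 11.86 and 12.08 in Δpde2 arrays, with 12.32 and 12.35 in Δpde2Δtpk3 arrays, which lay within the wild type range.

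Of the exchange factors unrelated to Hsp110, FES1 rose by 0.72 (SE 0.15, adjusted p = 0.00859, limma) in Δpde2 against wild type cells, and SNL1, a membrane-bound protein of the BAG type, differed by -0.14 (adjusted p = 0.68). SSE1 and FES1 kept their calls with each array left out. SSE2 kept its own in 3 of 8 cases and reached 0.128 without Δpde2 replicate 2. In Δpde2Δtpk3 against wild type cells SSE1 differed by 0.71 (adjusted p = 0.056), which passed without wild type replicate 1 (0.016) or 2 (0.045), and FES1 by 0.65 (adjusted p = 0.089), which passed without wild type replicate 1 (0.0297). Without that array SSE2 passed between the mutants (-0.36, adjusted p = 0.0184).

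The chaperones that meet nascent chains at the ribosome were SSB1 and SSB2, near-identical Hsp70 genes, and SSZ1 and ZUO1, which form the ribosome-associated complex. Only ZUO1 passed the test, rising by 0.74 in Δpde2 against wild type cells (SE 0.12, adjusted p = 0.00363, limma). It read 12.37, 12.43 and 12.21 in wild type, 13.17, 13.12 and 12.95 in Δpde2 and 12.68 and 12.45 in Δpde2Δtpk3 arrays. Its partner SSZ1 read 11.75 to 11.99, 12.09 to 12.44 and 11.84 and 11.79, and differed by 0.37 (SE 0.13, adjusted p = 0.056). In both genes the Δpde2 arrays lay above all others.

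SSB1 read 13.56, 13.52 and 13.22 in wild type, 13.62, 13.58 and 13.54 in Δpde2 and 13.30 and 13.59 in Δpde2Δtpk3 arrays. SSB2 read 13.39, 13.16 and 12.77, then 13.06, 13.17 and 13.12, then 12.93 and 12.98. Differences of both genes lay between -0.16 and 0.16 in the 3 comparisons, with standard errors of 0.14 to 0.18. The probe set used for SSB1 is marked as shared by similar transcripts, so that both genes may be read in part together, and the other SSB1 probe set gave 0.23 for Δpde2 with wild type, 0.04 between the mutants and 0.19 for Δpde2Δtpk3 with wild type. ZUO1 kept its call with each array left out, and without wild type replicate 1 SSZ1 passed against wild type (adjusted p = 0.0155, limma) and both ZUO1 (0.0122) and SSZ1 (0.0244) passed between the mutants.

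In the endoplasmic reticulum KAR2, the BiP chaperone of the lumen, rose in both mutants, although for Δpde2Δtpk3 cells the call depended on the processing. It read 12.92, 13.12 and 13.01 in wild type, 13.52, 13.54 and 13.52 in Δpde2 and 13.55 and 13.66 in Δpde2Δtpk3 arrays, with differences from wild type of 0.51 (SE 0.10, adjusted p = 0.00726, limma) and 0.59 (SE 0.11, adjusted p = 0.0473). The former held with each array left out. With 1 array left out the latter passed without wild type replicate 1 only, reaching 0.259 without Δpde2Δtpk3 replicate 2. It did not pass on the values as deposited (adjusted p = 0.0563), after median centring (0.0591) or with only these strains in the fit (0.363). LHS1, which exchanges nucleotides on Kar2p, read 7.06, 8.87 and 9.06 in wild type, 9.54, 9.64 and 9.51 in Δpde2 and 9.22 and 8.86 in Δpde2Δtpk3 arrays. Its difference of 1.23 between Δpde2 and wild type cells did not pass (SE 0.49, adjusted p = 0.082). Without wild type replicate 1 it passed at a smaller value of 0.60 (adjusted p = 0.00498), and it also passed without replicate 3, at 1.60. The difference between the mutants, 0.53, passed without replicate 1 (adjusted p = 0.0134), and that of Δpde2Δtpk3 with wild type cells went from 0.71 to 0.07.

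CPR3, the mitochondrial cyclophilin, fell by 0.64 in Δpde2 against wild type cells (SE 0.12, adjusted p = 0.00486, limma), from 13.64, 13.40 and 13.44 to 12.81, 12.93 and 12.82, with 13.15 and 12.96 in Δpde2Δtpk3 arrays between. CPR1, the cytosolic target of cyclosporin A, stayed within 13.82 to 14.09 and differed by -0.11 (adjusted p = 0.37). The HSF1 transcript differed by -0.34 (SE 0.16, adjusted p = 0.13). CPR3 kept its call with each array left out, and passed for Δpde2Δtpk3 with wild type without wild type replicate 1 (0.0494).

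CCT, the ring-shaped chaperonin that folds actin and tubulin, is built of 8 different subunits. Of its genes only CCT8 passed, rising by 0.47 in Δpde2 against wild type cells (SE 0.12, adjusted p = 0.017, limma), with 11.53, 11.79 and 11.73 in wild type, 12.14, 12.18 and 12.15 in Δpde2 and 11.99 and 11.77 in Δpde2Δtpk3 arrays. The others lay between -0.27 (TCP1, adjusted p = 0.064) and 0.32 (CCT5, adjusted p = 0.069), with CCT2 at 0.16, CCT3 at 0.21, CCT4 at 0.26, CCT6 at -0.03 and CCT7 at 0.29. The median of the 8 was 0.24, and no subunit passed in the other comparisons. CCT8 lost its call without any 1 Δpde2 array (0.0603 to 0.0659). Without wild type replicate 1 TCP1 passed against wild type (0.0467) and CCT8 between the mutants (0.0468).

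Ratios within an array, which a shift of the whole array does not touch, were followed for 11 pairs of related or partner genes. The largest shift was that of SSA3 to SSA2. The log2 difference of this pair was 1.35, 1.72 and 2.42 in wild type, -1.63, -1.50 and -1.63 in Δpde2 and -0.55 and -1.14 in Δpde2Δtpk3 arrays. It was thus lowest in Δpde2 arrays and between in the double mutant, with a change of -3.42 against wild type for Δpde2 cells, or 10.7-fold, and -2.67, or 6.38-fold, for Δpde2Δtpk3 cells.

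SSA3 to SSA4, both stress-inducible, changed by -2.52 and -1.70 against wild type, SSA1 to SSA2 by -2.18 and -1.61, SSA4 to SSA1 by 1.28 and 0.63, SSE2 to SSE1 by -1.12 and -0.71, and AHA1 to HCH1 by -1.15 and -0.64. Smaller shifts were seen for HSP26 to HSP42 (-0.57 and -0.44) and for CPR6 to CPR7 (-0.27 and 0.42, or -0.50 and 0.22 on the values as deposited). After quantile normalization the arrays of each mutant did not overlap with those of wild type in these pairs. By contrast HSP82 to HSC82 changed by 0.08 and 0.05 and SSB1 to SSB2 by 0.14 and 0.17, with overlap, and HSP104 to HSP78 overlapped for Δpde2 (-0.10) but not for Δpde2Δtpk3 cells (-0.49). Without wild type replicate 1 the changes of HSP104 to HSP78 were 0.08 and -0.31, those of HSP82 to HSC82 0.03 and 0.00 and those of SSB1 to SSB2 0.06 and 0.09, while SSA3 to SSA2 changed by -3.66 and -2.91.

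With 3 arrays against 3, or 3 against 2, the two-sided exact permutation test used for these ratios cannot give a p below 0.1. Over the 33 comparisons the lowest adjusted p was 0.138, so that none could pass. The pairs are therefore given as values with no call.

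**Figure D4:**
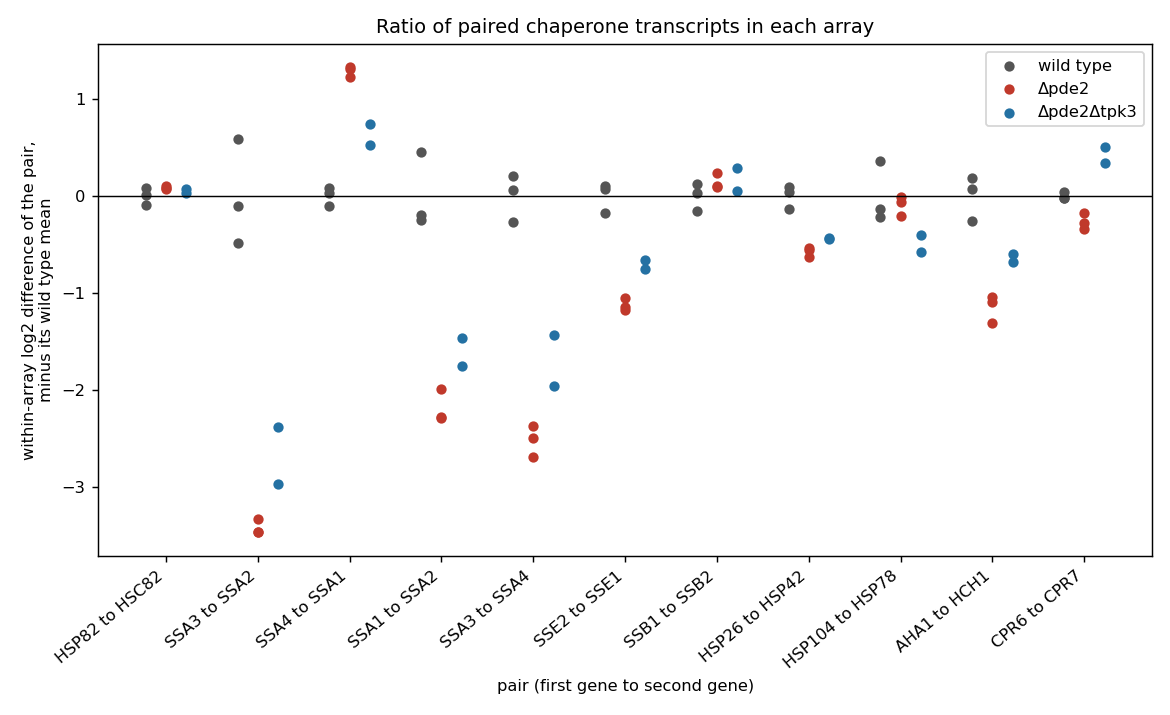
Within-array log2 difference of each of 11 gene pairs minus its wild type mean (points are arrays, coloured by strain). The pairs SSA3 to SSA2, SSA3 to SSA4 and SSA1 to SSA2 lie lowest in Δpde2 arrays with Δpde2Δtpk3 arrays between, while the HSP82 to HSC82 values of all strains overlap near the wild type mean.

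Beyond these genes, 58 further genes of protein folding with a probe set were counted (prefoldin, other J proteins, folding enzymes of the endoplasmic reticulum, further Hsp90 partners, prolyl isomerases, mitochondrial chaperones, stress regulators and sorting factors). Of these 21 rose and 6 fell in Δpde2 against wild type cells, or 36.2% and 10.3%, beside 19.5% and 21.9% of all genes. Their median log2 fold change was 0.45, beside 0.03 for all genes. The groups were unlike. Of 6 prefoldin genes 3 rose and 0 fell (median 1.43), and of 10 other J proteins 5 rose and 0 fell (median 1.03). Of 12 other folding enzymes of the endoplasmic reticulum 3 rose and 4 fell (median -0.16). Of 7 mitochondrial chaperones 1 rose and 1 fell (median -0.01). BTN2, which sorts misfolded proteins, rose by 1.75 (SE 0.42, adjusted p = 0.0147, limma), GIM3, a subunit of prefoldin, which hands actin and tubulin to CCT, by 1.58 (SE 0.16, adjusted p = 0.000593) and BTT1, of the nascent chain complex, by 1.53 (SE 0.28, adjusted p = 0.00523). The widest falls were those of the secretory pathway cyclophilin CPR8 (-1.04, adjusted p = 0.000584), the prolyl isomerase FPR2 (-0.71, adjusted p = 0.0163) and the stress factor MSN2 (-0.61, adjusted p = 0.0333).

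Between the mutants 6 of the 58 (10.3%) were higher and 2 (3.45%) lower in Δpde2 cells, beside 5.56% and 7.41% of all genes. GIM3 was higher by 1.14 (adjusted p = 0.0144, limma), its prefoldin partner PAC10 by 0.99 (adjusted p = 0.0309) and EUG1, a protein disulphide isomerase, by 0.88 (adjusted p = 0.0311), while SSC1, the matrix Hsp70 with which Mdj1p works, was lower by 1.38-fold (-0.47, adjusted p = 0.0478) and CPR8 by 1.37-fold (-0.46, adjusted p = 0.0447). Between Δpde2Δtpk3 and wild type cells 3 (5.17%) were higher and 0 lower, beside 1.03% and 1.69% of all genes, namely MSN4 (1.21, adjusted p = 0.0355), CUR1, a sorting factor related to BTN2 (1.07, adjusted p = 0.023), and SIL1, an exchange factor for Kar2p (0.64, adjusted p = 0.041). These counts moved with single arrays. Without wild type replicate 1 they were 31 higher and 8 lower for Δpde2 with wild type, 20 and 6 between the mutants and 9 and 2 for Δpde2Δtpk3 with wild type, where all genes gave 31.4% and 29.4%, 23.8% and 20.8%, and 8.77% and 9.08%. Leaving out 1 Δpde2 array gave 11 to 13 and 1 to 2 for Δpde2 with wild type, where at most 12.2% and 15.2% of all genes were called. It gave 0 in the other comparisons. There at most 0.697% and 1.67% of all genes were called between the mutants, and 0.0918% and 0.551% between Δpde2Δtpk3 and wild type cells.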

How the data were processed

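Values were those the authors deposited for 8 arrays, on a log2 scale as read from their range. How they were summarised and normalized before they were deposited is not given in the sources used here. All 5814 probe sets entered quantile normalization between arrays in limma 3.58.1 under R 4.3.3, since their first quartiles spread over 0.386. The annotation paired 5498 probe sets with 1 gene and 12 symbols were updated to current RefSeq names. For 47 genes with several probe sets the one of the highest mean was kept, which left 5449 genes. A fit of the 3 strains with 5 residual degrees of freedom, empirical Bayes moderation and Benjamini-Hochberg adjustment over all genes gave the tests, called at an adjusted p under 0.05. The fit, but not the normalization or the choice of probe sets, was tested on simulated data, for Δpde2 with wild type only. Gene pairs were compared by an exact permutation test.

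The chaperones, families, pairs and further folding genes, of which 61 were listed and 58 measured, were chosen with earlier results of these data known. Values per array are given for chaperones called at 2-fold or more in any comparison and for the Hsp90, SSA, SSB and SSE genes, and for others where a result turned on them. At most 3 further folding genes are named in each direction. Alternatives were other normalizations, one of them without wild type replicate 1, a filter on low signal, the mean of probe sets, a 2-fold threshold, fits with a replicate block, with array weights, with trend and robust moderation or with 2 strains only, and fits with each array left out. Those for the further folding genes and for the arrays of the double mutant were added after seeing the data. Sequences of promoters and proteins were not analysed here.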

Additional observations from a re-analysis of the deposited data

How the results depend on the processing

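Of the 19 chaperone calls between Δpde2 and wild type cells, 13 held with each array left out, and none of those in the other comparisons did. Counts of chaperones called higher and lower are given with the same for all genes tested in brackets. For Δpde2 with wild type (13 and 6) they were 23 and 10 with array weights (37.2% and 34.4%). At 2-fold or more they were 3 and 3 (379 and 494 of 5449 genes). Leaving out 1 array gave 8 to 16 and 5 to 8 (at most 31.4% and 29.4%). Between Δpde2 and Δpde2Δtpk3 cells (0 and 4) they were 6 and 9 with only these strains in the fit (22.7% and 19.7%). Array weights gave 4 and 9 (16.9% and 15.6%), and normalization repeated without wild type replicate 1 gave 7 and 11 (23.8% and 20.8%). With the lowest 33.3% of genes by signal left out they were 1 and 5 (8.67% and 11.8% of the genes kept). Trend and robust moderation also gave 1 and 5 (6.53% and 7.96%). At 2-fold or more they were 0 and 1 (80 and 136 of 5449 genes). With 1 array left out they were 0 to 7 and 0 to 11 (at most 23.8% and 20.8%). Between Δpde2Δtpk3 and wild type cells (3 and 2) they were 0 and 0 with only these strains (0% and 0.184%). Without low signal they were 5 and 2 (2.37% and 3.14% of the genes kept). Trend and robust moderation gave 10 and 2 (1.74% and 2.09%) and array weights 13 and 2 (6.72% and 6.85%). Normalization repeated gave 13 and 3 (8.85% and 9.12%) and median centring 2 and 1 (0.844% and 1.43%). At 2-fold or more they were 1 and 0 (29 and 62 of 5449 genes). With 1 array left out they were 0 to 13 and 0 to 3 (at most 8.77% and 9.08%).

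Deviations of arrays with the same replicate number were weakly correlated (-0.0915 to 0.194 over 7 pairs, 2 of them over 0.1). Those 2 joined Δpde2Δtpk3 replicate 2 to replicate 2 of Δpde2 (0.194) and of wild type (0.118). As deviations sum to 0 within strains of 2 or 3 arrays, these values do not settle whether arrays were paired. With the replicate block the counts were 10 and 5, 0 and 0, and 0 and 0. In the first comparison the block called 16.1% and 18.5% of all genes. In the others it called 1 and 0, and 0 and 5, of all 5449 genes. Of the 58 further folding genes the block left 17 and 2, 0 and 0, and 0 and 0. With 1 array left out they numbered 11 to 31 and 1 to 8, 0 to 20 and 0 to 6, and 0 to 9 and 0 to 2. The shares of all genes were then at most 31.4% and 29.4%, 23.8% and 20.8%, and 8.77% and 9.08%. As deposited, 1 further folding gene was lower in Δpde2Δtpk3 than in wild type cells, beside 1.96% of all genes. Chaperones with both Δpde2Δtpk3 arrays below all others numbered 1 as deposited or after median centring (CPR1), beside 4.64% and 3.78% of all genes. With 1 array left out they numbered 0 to 3, beside 4.33% to 13.0% of all genes. Those above then numbered 11 to 15, beside 3.23% to 12.0%.

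Differences near 0 changed sign. SSB2 between Δpde2 and wild type was -0.026 as deposited, -0.076 after median centring and -0.16 to 0.15 with 1 array left out, and between Δpde2Δtpk3 and wild type 0.085 with array weights. SSB1 in the latter comparison was -0.010, -0.016, -0.049 with the replicate block and -0.13 to 0.16. SSE2 there was 0.029 with the block and -0.047 to 0.027. Between the mutants SSA2 ran from -0.059 to 0.24, SSB1 from -0.0055 to 0.28 and SSE1 from -0.000138 to 0.12 with 1 array left out, and SSE1 was -0.0041 after median centring. None of these passed a test, and the cause was not tested.

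Precision was limited by 2 or 3 arrays per strain, by wild type replicate 1 and by levels near the top of the scale for HSP26 and HSP12. Signal over background is not in the values used. The planned counts of promoter motifs and the alignment of paired proteins were not run, since no sequences were used here.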
